A study of Bos taurus with 8 samples.

Results

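Nuclear receptor mRNA was examined in the liver of Japanese Black fetuses whose dams received a low or a high plane of nutrition. The receptors were 37 genes of the nuclear receptor superfamily, taken by name and not by a threshold on their signal. A probe was assigned to a receptor when the RefSeq accession on the array belonged to that gene. Of the 37 receptors, 30 had a matched probe and 26 had a detected probe, out of 12603 genes with a matched probe and 10860 with a detected probe in the whole data set. RXRA, RARB, THRB, NR0B2, NR1D2, NR2F6 and NR4A3 had no probe assigned in this way and were not analysed here.

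The low-nutrition (LN) group held 4 fetuses (L5, L6, L8 and L9) of dams given 60% of their nutritional requirement, and the high-nutrition (HN) group held 4 fetuses (L1, L2, L3 and L10) of dams given 120%. Both diets were fed during gestation to cows inseminated with male-sorted semen of the same sire, and the livers were taken at 8.5 months after conception in both groups. No unrestricted control at the full requirement was among the arrays, and the study's methods state a choice by body weight (light fetuses for LN, heavy fetuses for HN). The sample labels give 1 fetus per Agilent bovine array in 1 colour, while the overall design notes mention pooling of RNA by group. Each of the 8 arrays is taken here as 1 fetus.

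Nuclear receptors are transcription factors that bind small lipophilic molecules, such as fatty acids, bile acids, oxysterols, steroids, thyroid hormone and vitamins A and D, and carry that signal to the promoters of target genes. Many act as heterodimers with a retinoid X receptor, while the glucocorticoid and mineralocorticoid receptors wait largely in the cytoplasm on HSP90 chaperones until hormone arrives. Orphan receptors such as HNF4A act largely without a regulated ligand. In liver, nuclear receptors set the capacity for fatty acid oxidation, bile acid and cholesterol export, detoxification and gluconeogenesis. Much of their control lies in ligand supply rather than in the amount of receptor mRNA.

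The LN arrays lay on 1 slide and the HN arrays on another, scanned separately, so the diet cannot be told apart from slide or scan. Between 32635 and 34369 of 43803 spots per array were well above background, and 0 were saturated. Precision is limited by the small number of arrays. Hepatocyte markers were present as labelled: 8 of 9 listed genes were detected, with a median log2 difference (LN minus HN) of 0.01. Their summed log2 signal was 20.68 to 20.77 in LN and 20.61 to 20.74 in HN. Markers of blood cells were also examined. All 8 detected erythroid genes of 12 listed had a higher mean in LN (7 with scaling to the 75th percentile), with summed signals of 13.83 to 17.09 in LN and 12.96 to 14.98 in HN. None passed an unadjusted limma p of 0.05, LN fetus L5 was the highest for 7 of the 8, and the median of 1.3 was 0.39 without it. The other LN sums lay inside the HN range, and EPB42, SLC4A1, KLF1 and HEMGN were not detected. Of 11 neutrophil genes, 10 were higher in LN (13.41 to 14.97 against 12.51 to 13.80), 5 with an unadjusted limma p of at most 0.05, 3 without overlap and 0 after adjustment. Over all genes, 3.3% were higher at that unadjusted p, and 2.59% lay above HN without overlap. All 5 detected lymphocyte genes of 7 had a lower mean in LN (median -0.35), but 4 of 5 with scaling to the 75th percentile and 3 without L5. Of these genes, 1 passed an unadjusted limma p of 0.05 and 0 after adjustment. The medians of the macrophage, endothelial, stellate and cholangiocyte lists were -0.11, 0.08, -0.10 and 0.01. With single fetuses left out they ran from -0.28 to -0.04, from -0.04 to 0.18, from -0.30 to 0.10 and from 0.00 to 0.23. The cholangiocyte differences ran from -0.09 to 0.67, with 1 gene higher at an unadjusted limma p of 0.05 and 0 after adjustment. In bulk liver, fewer cells of a type and less RNA per cell cannot be told apart, and the part of blood cells in the differences below was not tested.

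The brightest detected probe, by mean over arrays, stood for each receptor, and a probe counted as detected if 4 or more of the 8 arrays flagged it well above background. Levels are log2 of the scanner intensity after quantile normalization, and levels of different genes are not compared, since each probe has its own brightness. Of the 26 detected receptors, 16 had a lower mean in LN and 10 a higher one, with a median log2 difference of -0.03. Among all 10860 genes 48.4% were lower, and their median was 0.01. The split among receptors was 18 lower with scaling to the 75th percentile and 15 lower with another background correction (normexp).

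By limma, 0 of the 26 receptors passed an adjusted p of 0.05, against 0% of all genes, and the lowest adjusted p was 0.760. At an unadjusted limma p of 0.05, 4 receptors passed: NR1I3 and NR2C2 were lower, and NR3C2 and VDR were higher in LN. This was 15.4% of the detected receptors, against 6.05% of all genes, with 2.75% lower and 3.3% higher. With 75th percentile scaling, with slide position as a block, and without L1, L2, L5 or L8, 2 receptors passed, or 7.69%. The background moved too in those settings. Of 33439 detected probes, 2813 passed with 75th percentile scaling and 1672 with the block, against 2113 in the main fit. Without those single fetuses, 1836 to 2132 probes passed. Shares over genes were not computed in those settings. The number was 4 again with a test that does not moderate the variance, and 0 after its adjustment. The groups did not overlap for NR2C2 and VDR, or 7.69% of receptors, against 4.14% of all genes (1.56% with LN below HN and 2.59% with LN above). A difference of at least 0.5 in size was seen for NR1I3 alone, or 3.85% of receptors, against 6.68% of all genes.

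**Figure D1:**
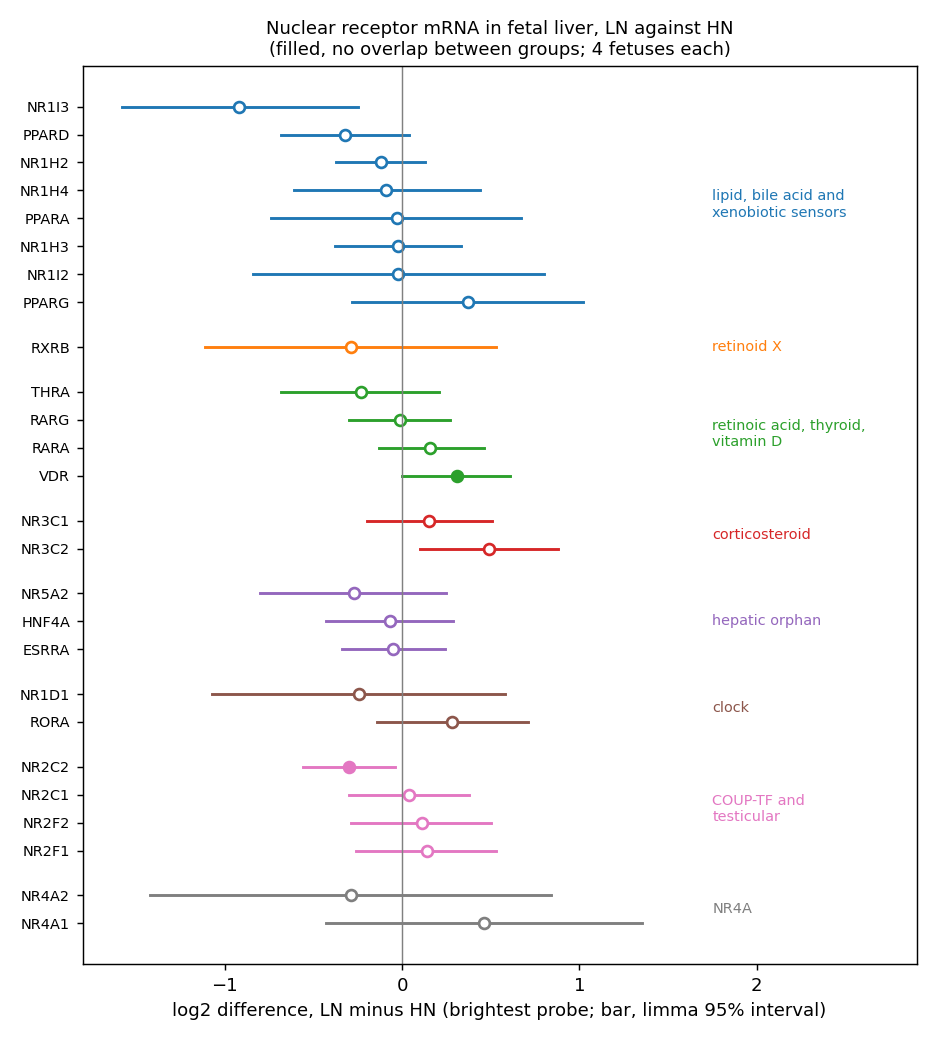
Log2 difference in mRNA between LN and HN fetal liver (LN minus HN) for the 26 detected nuclear receptors, ordered within receptor classes, with bars for the limma 95% interval from 4 fetuses in each group. NR1I3 lies farthest to the left at -0.92, and filled points mark NR2C2 and VDR, whose groups did not overlap.

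The receptors that sense fatty acids, sterols, bile acids and foreign compounds were all detected, and 7 of these 8 had a lower mean in LN (6 with normexp, and 4 without HN fetus L3). The constitutive androstane receptor CAR, NR1I3 (NM_001079768), which induces enzymes of drug and bilirubin clearance, had the largest difference of any receptor. Its log2 signal was 7.15 in L5, 6.50 in L6, 7.34 in L8 and 7.84 in L9 among LN fetuses, and 8.05 in L1, 7.72 in L2, 8.11 in L3 and 8.63 in L10 among HN fetuses. Only LN fetus L9 reached into the HN range, just above L2, and L6 lay lowest. NR1I3 differed by -0.92 (standard error 0.29, 95% interval -1.58 to -0.25), or 0.530 times the HN level (exact permutation p = 0.0571, limma unadjusted p = 0.0124, adjusted p = 0.760). The other NR1I3 probe differed by -0.65 (exact permutation p = 0.171). When single fetuses were left out, the NR1I3 difference ran from -1.13 (without L9) to -0.68 (without L6), and without LN fetus L5, the one with the high erythroid signal, it was -0.90.

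The pregnane X receptor NR1I2 (NM_001103226), which binds many drugs and steroids, shares many targets with NR1I3. Its log2 signal was 8.84, 8.41, 9.09 and 8.89 in L5, L6, L8 and L9, and 9.60, 7.74, 9.14 and 8.82 in L1, L2, L3 and L10. HN fetuses L1 and L2 held the highest and the lowest value of all 8. The difference was -0.02 (limma standard error 0.36, interval -0.84 to 0.80), so a change of up to 0.80 on the log2 scale in either direction lies within the error. The dimmer NR1I2 probe differed by -0.35 (limma standard error 0.52).

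Of 19 genes listed as targets of PXR and CAR, 13 were detected, of which 8 were lower in LN, with a median of -0.20 (-0.40 without HN fetus L2). At an unadjusted limma p of 0.05, 2 were lower and 0 higher (2.75% and 3.3% of all genes), and 0 passed after adjustment. These 2 were UDP glucuronosyltransferases, which attach glucuronic acid to bilirubin, steroids and drugs. Both were among the genes the study singled out on these animals, so they are not independent evidence. UGT1A6 measured 5.95, 5.91, 6.48 and 6.87 in L5, L6, L8 and L9 and 7.50, 7.30, 6.79 and 7.93 in L1, L2, L3 and L10, a difference of -1.08 (limma standard error 0.29, adjusted p = 0.760, exact permutation p = 0.0571). UGT1A6 was at -0.71 with normexp. UGT1A1 differed by -0.91 (limma standard error 0.23, adjusted p = 0.760, exact permutation p = 0.0571). The UGT1A genes share their last exons, so their probes may read the same transcripts. NR1I3, UGT1A6 and UGT1A1 each had their lowest value in LN fetus L6 and their highest in HN fetus L10.

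PPARA (NM_001034036), the fatty acid receptor that induces oxidation and ketogenesis during fasting, did not separate the groups. It measured 5.36 in L5, 6.54 in L6, 5.79 in L8 and 6.25 in L9, and 5.83 in L1, 5.53 in L2, 6.69 in L3 and 6.02 in L10. Each group spanned more than 1 log2 unit, with the lowest fetus in LN and the highest in HN. The difference was -0.03 (limma standard error 0.31, interval -0.74 to 0.67, exact permutation p = 0.971), and it changed sign with normexp (0.01).

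The genes listed as PPARA targets lay lower in LN with no exception among those detected. All 20 detected targets of 22 listed had a lower mean in LN, also with 75th percentile scaling and with normexp, and so did all 52 of their detected probes. Their median was -0.26, against 0.01 over all genes. The single differences ran from -0.75 to -0.05, and 1 target passed an unadjusted limma p of 0.05, with 0 after adjustment (lowest adjusted p = 0.785). Over all genes, 2.75% were lower at that unadjusted p. APOA5, ANGPTL4 and EHHADH are targets that the study itself names, and the other 17 had a median of -0.22. The list was written with earlier results of these data known, and its genes share fetuses and pathways, so the count is a description.

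APOA5, an apolipoprotein that promotes triglyceride clearance, was the target that passed. It measured 11.86, 11.86, 12.17 and 11.78 in L5, L6, L8 and L9, and 12.86, 12.21, 11.90 and 13.06 in L1, L2, L3 and L10. HN fetus L3 lay below LN fetus L8, and the other HN fetuses lay above all LN fetuses. The difference was -0.59 (limma standard error 0.25, adjusted p = 0.785, exact permutation p = 0.0571).

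Across fetuses, the PPARA targets did not divide cleanly by group. Taking each target relative to its own mean over the 8 fetuses, the median target was at -0.20 in L5, -0.18 in L6, -0.06 in L8 and -0.21 in L9. It was at 0.03 in L1, 0.19 in L2, -0.23 in L3 and 0.42 in L10. HN fetus L3 therefore lay as low as the LN fetuses, and of the 20 targets, 8 were highest in L10 and 6 in L2. Without L10, 18 of 20 targets were lower in LN. The median was -0.18 without L2 and -0.40 without L3. The receptor mRNA itself was highest in L3.

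**Figure D2:**
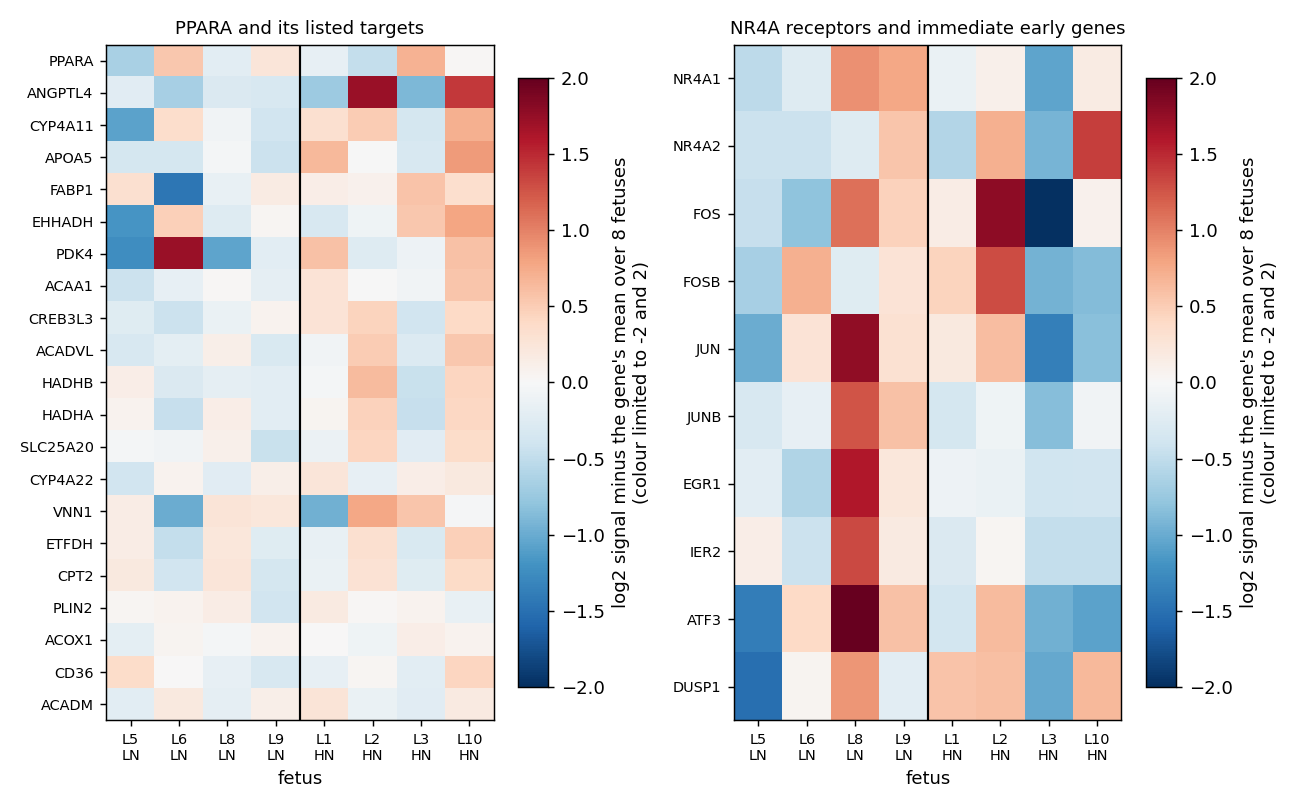
Heat maps of log2 signal minus the gene's mean over the 8 fetuses, with LN fetuses left and HN fetuses right of the line, for PPARA and its 20 detected targets (left) and for the NR4A receptors with 8 immediate early genes (right). ANGPTL4 is deep red in L2 and L10, the targets are mostly red in L2 and L10 and not in L3, and the immediate early genes are reddest in L8 and bluest in L3.

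The other peroxisome proliferator receptors differed in opposite directions. PPARD (NM_001083636), expressed widely and active in lipid use, measured 9.37, 9.41, 9.46 and 9.87 in L5, L6, L8 and L9, and 9.65, 9.98, 9.71 and 10.06 in L1, L2, L3 and L10. The LN fetuses other than L9 lay below all HN fetuses, and the difference was -0.32 (limma standard error 0.16, adjusted p = 0.787, exact permutation p = 0.0857). Leaving out single fetuses gave values from -0.43 to -0.25. PPARG, the adipogenic member, differed by 0.37 (interval -0.28 to 1.02) on 1 probe and 0.45 on the other, and the value was 0.12 without HN fetus L2, which lay lowest at 7.77.

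The oxysterol receptors are LXRα, NR1H3 (NM_001014861), and LXRβ, NR1H2, which drive cholesterol export and lipogenesis. NR1H3 measured 13.34, 13.40, 13.23 and 13.24 in LN fetuses L5, L6, L8 and L9, and 13.32, 12.91, 13.58 and 13.49 in HN fetuses L1, L2, L3 and L10. All LN values lay inside the HN range, and the difference was -0.02 (standard error 0.16, interval -0.38 to 0.33). Its dimmer probes differed by -0.16 and -0.23 (limma standard errors 0.16 and 0.18). NR1H2 differed by -0.12 (interval -0.37 to 0.13), but its 2 dimmer probes gave 0.07 and 0.36, the latter with a limma unadjusted p of 0.0453 (adjusted p = 0.785, exact permutation p = 0.0571). Of 11 detected LXR targets, 4 were lower and 7 higher, with a median of 0.05. SCD, the desaturase that makes monounsaturated fatty acids, differed by 0.58 (exact permutation p = 0.171). PLTP, the phospholipid transfer protein of plasma lipoproteins, was the only one at an unadjusted limma p of 0.05, with a difference of -0.58 (limma standard error 0.16, adjusted p = 0.760, exact permutation p = 0.0571).

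The bile acid receptor FXR, NR1H4 (NM_001034708), measured 8.30, 9.42, 8.99 and 8.83 in L5, L6, L8 and L9, and 8.89, 9.19, 8.73 and 9.07 in L1, L2, L3 and L10. LN fetuses L5 and L6 held the lowest and the highest value, so the groups overlapped fully. The difference was -0.09 (limma standard error 0.23, interval -0.61 to 0.44), and it was 0.11 without L5. The dimmer NR1H4 probe differed by -0.24 (limma standard error 0.19). Of 6 detected FXR pathway genes, 2 were lower and 4 higher (median 0.03), and 0 passed an unadjusted limma p of 0.05. With single fetuses left out, 1 to 5 were lower, and the median was -0.10 without L9. Directions were counted whether FXR raises or lowers a gene, so the count and median do not measure FXR activity. CYP7A1, the rate-limiting enzyme of bile acid synthesis, was not well above background in L5, L6, L9 and L3. Its difference of -0.96 (standard error 0.96) therefore rests on values at background in both groups, and it was -0.17 with normexp. SLC51A, a subunit of a bile acid exporter, differed by -0.19 and by 0.09 without L5.

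**Figure D3:**
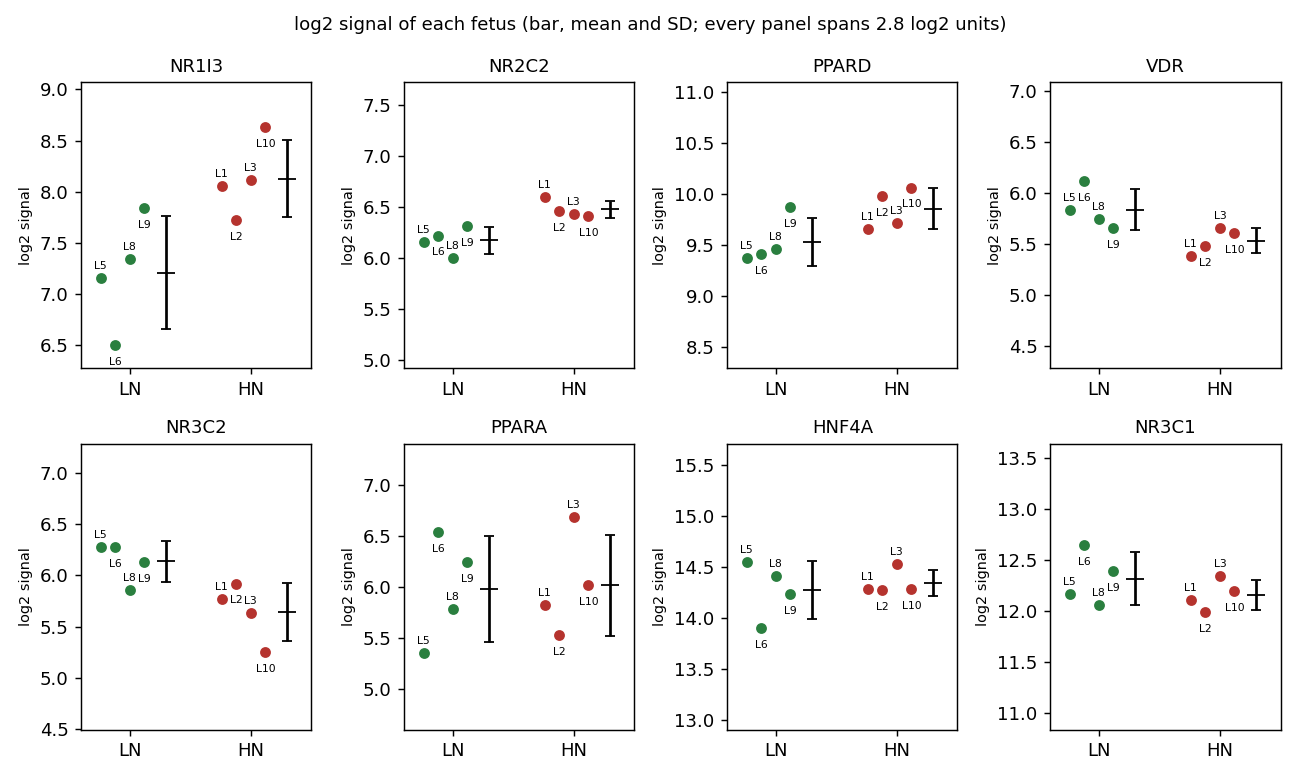
Log2 signal of 8 nuclear receptors in each LN and HN fetus, labelled by fetus, with the mean and SD of each group (n = 4) and a span of 2.8 log2 units in every panel. NR2C2 and VDR do not overlap between groups, NR1I3 overlaps through L9 and L2, and PPARA, HNF4A and NR3C1 overlap broadly.

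Of the retinoid X receptors, the shared heterodimer partners, RXRB was detected and RXRG had 0 detected probes among 2. RXRB differed by -0.29 (standard error 0.36), with LN fetuses L5 and L6 at the highest and the lowest value (5.96 and 4.28), by -0.02 without L6, by -0.57 without L5 and by -0.09 with normexp. Partner abundance is therefore known here for 1 receptor of 3.

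Among the receptors for retinoic acid, thyroid hormone and vitamin D, VDR (NM_001167932) was the one with separated groups. It measured 5.83, 6.11, 5.74 and 5.65 in L5, L6, L8 and L9, and 5.38, 5.48, 5.65 and 5.60 in L1, L2, L3 and L10. Every LN value was above every HN value, although L9 and L3 are equal at 2 decimals. The difference was 0.31 (limma standard error 0.13, interval 0.00 to 0.61, exact permutation p = 0.0286, limma unadjusted p = 0.0492, adjusted p = 0.785). It was 0.15 with 75th percentile scaling and 0.12 with normexp, with limma unadjusted p-values of 0.285 and 0.139. Of 4 detected VDR targets 3 were lower, but 2 with normexp and 1 without HN fetus L3. THBD, a thrombin receptor of endothelium and monocytes, differed by 0.51 (limma standard error 0.19, adjusted p = 0.765, exact permutation p = 0.0857).

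RARA differed by 0.16 (interval -0.13 to 0.46), a difference that vanished with 75th percentile scaling (-0.00), and RARG by -0.01 (interval -0.30 to 0.27). All 5 detected retinoic acid targets of 9 listed had a lower mean in LN (4 without HN fetus L3). Their median was -0.16, and it was -0.42 without L1 and -0.09 without L6. TGM2, a transglutaminase induced by retinoic acid, was the single one at an unadjusted limma p of 0.05, with a difference of -0.51 (limma standard error 0.21, adjusted p = 0.785, exact permutation p = 0.0857). THRA, the thyroid hormone receptor measured here, differed by -0.23 on its brightest probe (interval -0.68 to 0.21; -0.11 without HN fetus L2 and -0.40 without L3) and by -0.26 on the other. THRA overlaps NR1D1 in the reference annotation, and whether its probes read both genes was not tested.

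Of 6 detected thyroid hormone targets, 3 were lower and 3 higher, but THRSP stood out. THRSP, a lipogenic protein induced by thyroid hormone and carbohydrate, measured 6.32, 4.14, 6.32 and 5.44 in L5, L6, L8 and L9, and 6.39, 7.73, 7.58 and 8.80 in L1, L2, L3 and L10. All 4 LN fetuses lay below the HN fetuses, although L5 and L8 were close to L1. The difference was -2.07 (limma standard error 0.60, adjusted p = 0.760, exact permutation p = 0.0286), and all 4 of its probes were lower in LN. With normexp it was -1.28.

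Of the steroid receptors, the glucocorticoid and mineralocorticoid receptors were detected, and both had a higher mean in LN. ESR1, ESR2 and PGR had 0 detected probes among 9. The mineralocorticoid receptor NR3C2 (NM_001191349), which binds aldosterone and, with high affinity, cortisol, measured 6.28, 6.28, 5.86 and 6.13 in L5, L6, L8 and L9. In L1, L2, L3 and L10 it measured 5.77, 5.92, 5.63 and 5.25. LN fetus L8, below HN fetus L2, was the only point of overlap. The difference was 0.49 (limma standard error 0.17, interval 0.10 to 0.88, exact permutation p = 0.0571, limma unadjusted p = 0.0188, adjusted p = 0.760). It was 0.34 with 75th percentile scaling (limma unadjusted p = 0.0704), 0.25 with normexp, and 0.36 without HN fetus L10.

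The glucocorticoid receptor NR3C1 (NM_001206634), through which fetal cortisol matures the liver before birth, measured 12.17, 12.65, 12.06 and 12.39 in L5, L6, L8 and L9. In L1, L2, L3 and L10 it measured 12.11, 11.99, 12.34 and 12.20. L6 and L9 were the highest, and the groups overlapped. The difference was 0.15 (limma standard error 0.16, interval -0.20 to 0.51, exact permutation p = 0.371), with all 4 probes between 0.11 and 0.17, and it was 0.04 without L6 and 0.24 without L8.

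The targets of glucocorticoid receptor were divided. Of 16 detected genes, 9 were lower and 7 higher, with a median of -0.05. The median was -0.32 without LN fetus L6 and 0.12 without L5. At an unadjusted limma p of 0.05, 2 were lower and 1 higher (2.75% and 3.3% of all genes), and 0 passed after adjustment. The lower genes were the gluconeogenic enzymes PCK1 (-1.98, standard error 0.59) and G6PC1 (-3.47, standard error 1.04). The higher gene was MT2A, a metallothionein that binds zinc and copper (1.23, standard error 0.44). All 3 had been singled out by the study on these animals, and all 3 had a limma adjusted p of 0.760. LN fetus L6 was the highest for 8 of the 16 targets and L5 the lowest for 7, so the spread within LN was wide.

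Enzymes that make or remove receptor ligands were lower for 8 of 12 detected genes, with a median of -0.22 (-0.11 without LN fetus L6 and -0.14 with normexp). HSD11B1, which regenerates active cortisol from cortisone inside hepatocytes, measured 8.03, 9.10, 9.63 and 9.27 in L5, L6, L8 and L9, and 10.80, 10.15, 9.34 and 9.74 in L1, L2, L3 and L10. L8 was the LN fetus that lay above an HN fetus (L3). The difference was -0.999 (limma standard error 0.40, adjusted p = 0.783, exact permutation p = 0.0571), and HSD11B1 too was a gene the study had singled out. Of 9 detected ligand carriers, 5 were lower and 4 higher (4 lower with normexp). FABP1, which binds fatty acids in the hepatocyte, at -0.56 and STRA6, a retinol transporter, at -0.41 had the largest differences, neither with an unadjusted limma p of 0.05. FABP1 was at -0.17 without L6, and STRA6 at -0.19 with normexp.

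Coregulators and chaperones were higher in LN for 13 of 19 detected genes (12 with 75th percentile scaling), with a median of 0.07 (0.03 without L2). At an unadjusted limma p of 0.05, 3 were higher and 0 lower, against 3.3% and 2.75% of all genes. Without overlap, 2 lay above HN, against 2.59% of all genes. HSP90AA1, the inducible HSP90 that holds steroid receptors ready for hormone, differed by 0.47 and by 0.31 without L10 (limma standard error 0.19, adjusted p = 0.785, exact permutation p = 0.0571). PTGES3, or p23, a cochaperone of the same complex, measured 12.81, 12.75, 12.67 and 12.86 in L5, L6, L8 and L9, and 12.65, 12.52, 12.53 and 12.09 in L1, L2, L3 and L10. LN lay above HN in every fetus, by 0.33 on average and by 0.21 without L10 (limma standard error 0.14, adjusted p = 0.785, exact permutation p = 0.0286). PRMT1, an arginine methyltransferase coactivator, differed by 0.26. SIRT1, a deacetylase that acts on PPARA and its coactivator, differed by 0.22 without overlap (0.14 without L6, exact permutation p = 0.0286, limma adjusted p = 0.807). That coactivator, PPARGC1A, had the lowest difference of the list, -0.40 (limma unadjusted p = 0.0994, adjusted p = 0.795). FKBP5 had the highest, 0.53 (limma unadjusted p = 0.138, adjusted p = 0.816).

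**Figure D4:**
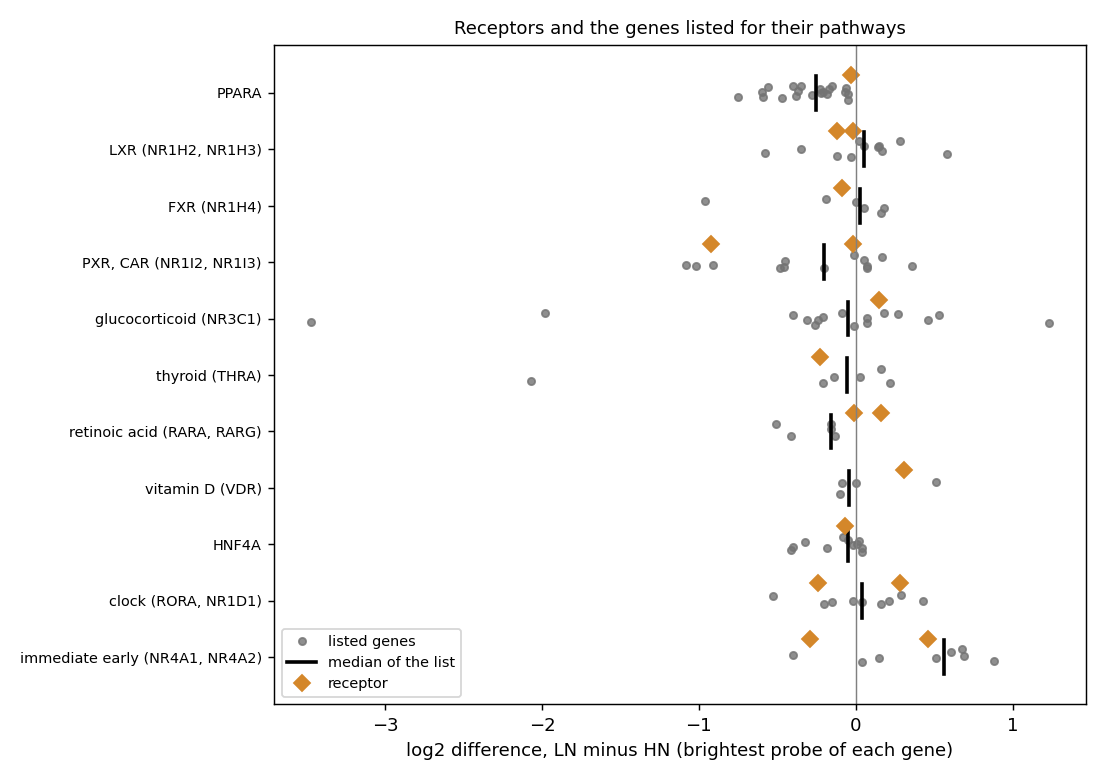
Log2 difference (LN minus HN) of each detected gene listed for a receptor's pathway (grey points), the median of each list (black line) and the receptors themselves (diamonds). The PPARA targets all lie left of 0 around a median of -0.26 while PPARA lies at -0.03, and single genes at -3.47 (G6PC1) and -2.07 (THRSP) lie far from the receptors of their pathways.

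The orphan receptors that maintain hepatocyte identity showed small differences. HNF4A (NM_001015557), which keeps up the expression of most secreted liver proteins, measured 14.55, 13.90, 14.41 and 14.23 in L5, L6, L8 and L9, and 14.28, 14.27, 14.53 and 14.28 in L1, L2, L3 and L10. The HN fetuses other than L3 were nearly equal, and L6 was the lowest of all. The difference was -0.07 (limma standard error 0.16, interval -0.43 to 0.29, exact permutation p = 0.714), all 4 probes were lower in LN, and the value was 0.05 without L6. Of 11 detected HNF4A targets, 7 were lower and 4 higher, with a median of -0.05 and 0 at an unadjusted limma p of 0.05. APOC3 at -0.41 and PKLR at -0.40 had the largest differences, which were -0.13 and -0.25 without HN fetus L10.

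NR5A2 (NM_001206816), or LRH-1, a regulator of bile acid and cholesterol genes, measured 7.65, 6.72, 7.68 and 7.49 in L5, L6, L8 and L9, and 7.98, 7.48, 7.46 and 7.71 in L1, L2, L3 and L10. L6 again lay lowest, and the other LN fetuses lay inside the HN range. The difference was -0.27 (limma standard error 0.23, exact permutation p = 0.371) and -0.05 without L6. ESRRA, a regulator of mitochondrial genes, differed by -0.05 (interval -0.34 to 0.24).

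The receptors of the circadian clock, which repress or activate the clock gene ARNTL, overlapped between groups. NR1D1 (NM_001078100) measured 4.70, 4.53, 4.91 and 6.01 in L5, L6, L8 and L9, and 4.83, 5.40, 4.93 and 5.97 in L1, L2, L3 and L10. L9 and L10 lay about 1 log2 unit above most other fetuses, 1 in each group. The difference was -0.24 (limma standard error 0.36, exact permutation p = 0.571). It was -0.57 without L9, -0.01 without L10, -0.43 with 75th percentile scaling and -0.11 with normexp. RORA differed by 0.28 (interval -0.14 to 0.71) and by 0.12 without L6. Of 9 detected clock genes, 4 were lower and 5 higher, with a median of 0.04, and 0 passed an unadjusted limma p of 0.05. HLF at -0.53 and NFIL3 at 0.43 had the largest differences. HLF, not well above background in L5, was at -0.11 without it and -0.07 with normexp, and NFIL3 at 0.22 without L3.

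NR2C2 (NM_001192061), the testicular receptor TR4, which acts on lipid and gluconeogenic genes in liver and on globin genes in erythroid cells, was lower in every LN fetus. It measured 6.16, 6.22, 6.00 and 6.31 in L5, L6, L8 and L9, and 6.60, 6.46, 6.43 and 6.41 in L1, L2, L3 and L10. The gap between the groups was narrow, from 6.31 in L9 to 6.41 in L10, but so was the spread within them. The difference was -0.30 (limma standard error 0.11, interval -0.56 to -0.04, exact permutation p = 0.0286, limma unadjusted p = 0.0282, adjusted p = 0.765). The limma unadjusted p was 0.0724 with slide position as a block, 0.00663 with 75th percentile scaling and 0.027 with normexp. Of the other detected probes, 2 were also lower in every LN fetus (-0.21 and -0.45, each with an exact permutation p of 0.0286), while the dimmest was higher, at 0.76 with overlap (limma unadjusted p = 0.0445, adjusted p = 0.785, exact permutation p = 0.0857). Averaged over its 4 probes, NR2C2 differed by -0.05 and the groups overlapped.

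The related NR2C1 differed by 0.04 (interval -0.30 to 0.38) and by -0.08 with 75th percentile scaling. The COUP transcription factors NR2F1 and NR2F2, expressed in venous endothelium and mesenchyme, differed by 0.14 and 0.11. Their LN fetuses lay close together (9.19 to 9.32 for NR2F1) and inside the wider HN range (8.73 to 9.50). Without HN fetus L10, the lowest for both, the differences were -0.00 and -0.04.

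The NR4A receptors, which have no known regulated ligand and are induced within minutes by stress, calcium and hormones, varied widely between fetuses. NR4A1 (NM_001075911) measured 11.15, 11.41, 12.59 and 12.45 in L5, L6, L8 and L9, and 11.54, 11.77, 10.62 and 11.83 in L1, L2, L3 and L10. L8 and L9 stood above the rest and L3 below, and the difference of 0.46 (standard error 0.39, exact permutation p = 0.314) lay within that spread. It was 0.19 without L3, 0.23 without L8 and 0.71 without L5. NR4A2 measured 7.72, 7.72, 7.89 and 8.70 in L5, L6, L8 and L9, and 7.56, 8.86, 7.23 and 9.54 in L1, L2, L3 and L10. Its difference was -0.29 (standard error 0.50), and it was 0.13 without L10 and -0.64 without L3.

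The immediate early genes, induced by the same kinds of stimuli, were higher in LN for 7 of 8 detected genes, with a median of 0.56. LN fetus L8 was the highest for 6 of the 8, and HN fetus L3 lay below the gene's mean for all 8. The median was 0.16 without L8. No gene of the list passed an unadjusted limma p of 0.05, and ATF3 at 0.88 (standard error 0.69) and JUN at 0.69 (standard error 0.61) had the largest differences, which were 0.31 and 0.21 without L8. NR4A1 and these genes thus shared their highest fetus, L8, and their low fetus, L3, in values given here without a test.

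Receptors differed widely in how much they varied among the 8 fetuses, whatever the group. The range over all fetuses was 0.36 for NR1H2 and RARG, and below 1 log2 unit for 14 of 26 receptors. It was 1.86 for NR1I2, 1.97 for NR4A1, 2.13 for NR1I3 and 2.31 for NR4A2. The standard error of the difference ran accordingly from 0.11 to 0.50. On the brightest probe it was 0.11 for NR2C2 (difference -0.30) and 0.50 for NR4A2 (difference -0.29), and neither passed after adjustment. Averaged over its 4 probes, NR2C2 differed by -0.05, with overlap. LN fetus L6 was the highest fetus for 6 receptors and the lowest for 5, and LN fetus L9 was the lowest for 0.

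Where several probes read the same receptor, they mostly gave the same direction. Of 16 receptors with more than 1 detected probe, 12 had all probes on the same side and 4 (NR1H2, NR2C2, NR5A2 and RARG) had probes on both sides. The 10 others rested on a single probe, among them PPARA, PPARD, VDR and NR3C2. A probe reads a short stretch of the transcript, so a disagreement may concern isoforms or probe quality, which was not tested.

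**Figure D5:**
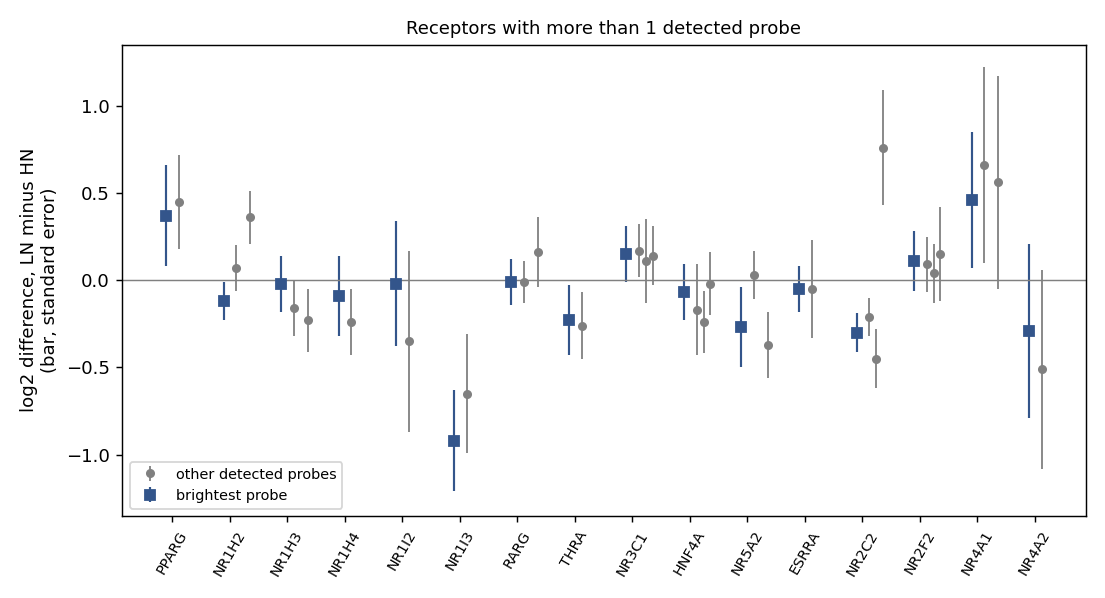
Log2 difference (LN minus HN) of every detected probe of the 16 receptors with more than 1 detected probe, with bars for the limma standard error (blue squares, the brightest probe that stands for the gene; grey circles, the others). NR1I3 is lower with both probes and NR3C1 higher with all 4, while NR2C2 has 3 probes below 0 and 1 at 0.76.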

How the data were processed

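Fetal liver RNA (4 LN, 4 HN) was hybridised to 1-colour arrays. The authors deposited scanner output, whose processed intensity Agilent Feature Extraction 11.0.1.1 had background-subtracted for each array separately. A second deposited table holds log2 values of 31068 probes, which the comparison with the scanner files shows to be quantile normalized (median gap 1.04e-04, column medians 8.07 on every array), with no centring of genes. From the intensity, control spots and outlier flags were removed, replicate spots averaged as log2, and 43637 probes quantile normalized. Accessions of 26740 probes were matched through a RefSeq table (assembly ARS-UCD2.0). The array's design build differs, so no coordinates are given, and no probe or transcript sequence was used here.

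LN and HN were compared over 33439 detected probes with limma 3.58.1 in R 4.3.3 (lmFit, eBayes, 2-sided, Benjamini-Hochberg), which was tested on simulated data. Exact permutation tests were 2-sided over 35 divisions of the 8 fetuses (smallest p 0.0286). P-values measure the spread between these fetuses. The members and lists were chosen with earlier results of these data known, and no list test was made. Directions in the lists were counted whether a receptor raises or lowers the gene. A few genes of the pathway lists are not reported here and were left out of the lists and their counts. Receptors are given in full if they differed by at least 0.5, did not overlap, had an unadjusted p of at most 0.05, or are major liver receptors (HNF4A, PPARA, NR1H3, NR1H4, NR1I2, NR3C1, NR1D1, NR5A2). PPARD, NR4A1 and NR4A2 were added after their values were seen. Of each pathway list, up to 4 genes without overlap or with an unadjusted p of at most 0.05 are named, or else the 2 with the largest difference. SCD, PPARGC1A and FKBP5 were added after their values were seen. The alternatives were 75th percentile scaling, normexp (offset 50), the authors' log2 table, no filter, detection on all 8 arrays, trend and robust eBayes, slide position as a block, the mean over probes, a 2-sided Student's test (stated in the methods for other assays) and leaving out each fetus.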

Additional observations from a re-analysis of the deposited data

Results flagged for a closer look

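Within-group values of 53 receptors and named pathway genes were examined, 106 groups of 4 fetuses in all, and 7 groups held a fetus far from the other 3. Chance flags about 1 in 20 groups. HN fetus L3 had an HNF4A signal of 14.53, while the other HN fetuses lay between 14.27 and 14.28. HN fetus L3 was also low for G6PC1, at 7.93 against 11.44 to 11.95. HN fetus L10 was low for NR2E3 (2.20 against 3.35 to 3.54) and SIRT1 (8.15 against 8.40 to 8.44), and high for APOC3 (15.16 against 13.95 to 14.15). LN fetus L6 was low for APOC3 (13.21 against 14.07 to 14.22). LN fetus L5 was low for PCK1, at 6.44 against 7.82 to 8.05.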

How the results depend on the processing

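In no setting did any of the 26 receptors reach an adjusted p of 0.05 (the lowest was 0.467), and 13 receptors kept their direction in every setting, among them NR1I3, NR2C2, NR3C2 and VDR. Receptors at an unadjusted p of 0.05 numbered 2 with 75th percentile scaling (VDR and NR3C2 lost the call) and with slide position as a block (VDR and NR2C2 lost it), and 2 to 5 with fetuses left out. Receptors without overlap numbered 1 with 75th percentile scaling, with normexp and with the mean over probes, and 2 to 4 with fetuses left out (4 without HN L2, LN L5 or LN L9). The share of all genes without overlap was computed for the main setting only (4.14%). With a fetus left out, groups separate more easily, so the rise to 4 is not read as a result. With fetuses left out, 1343 (without HN L10) to 2639 probes (without HN L3) passed an unadjusted p of 0.05, and 0 to 1 an adjusted p (1 without LN L6). Also with fetuses left out, the number of receptors lower in LN was 13 to 17, and their median difference -0.07 to 0.03. Directions reversed for PPARA (0.012 with normexp), RARA (-0.0037) and NR2C1 (-0.079) with 75th percentile scaling, and NR1H2 (0.10) and RARG (0.045) with the mean over probes. With fetuses left out, the range was -0.22 to 0.19 for PPARA, -0.16 to 0.06 for NR1H3, -0.27 to 0.11 for NR1H4, -0.38 to 0.24 for NR1I2, -0.074 to 0.051 for RARG, -0.16 to 0.054 for HNF4A, -0.11 to 0.039 for ESRRA, -0.056 to 0.12 for NR2C1, -0.0016 to 0.26 for NR2F1, -0.036 to 0.24 for NR2F2 and -0.64 to 0.13 for NR4A2. With fetuses left out, the small median differences of the LXR, FXR, glucocorticoid, thyroid, vitamin D, HNF4A, clock and carrier lists also changed sign. The causes were not tested. Removing the filter on dim probes gave 30 receptors. No paired analysis was possible because the labels give LN and HN no shared replicate numbers, and the block on slide position pairs arrays by place only. With 4 arrays a group, differences of the size of most receptors could not be told from the spread between fetuses.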

Other observations

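Of 10 further nuclear receptors that were not among the 37, 7 had a matched probe and 4 a detected one. HNF4G, NR0B1, NR2E3 and NR5A1 had log2 differences of 0.23, -0.16, 0.60 and -0.33, and 0 passed an unadjusted limma p of 0.05. NR2E3, known from photoreceptors, measured 3.27, 4.16, 3.62 and 3.97 in L5, L6, L8 and L9, and 3.35, 3.54, 3.54 and 2.20 in L1, L2, L3 and L10, where L10 was not well above background. Its difference was 0.36 with 75th percentile scaling, 0.06 with normexp and 0.28 without L10. NR5A1 was at -0.06 with normexp and -0.55 with 75th percentile scaling.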
